A study of Mus musculus with 12 samples.

Results

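Expression of 8 genes of red cell precursors was examined in whole hearts of postnatal day 8 mice: Alas2, Slc4a1, Epb42, Car2, Tfrc, Klf1, Gata1 and Ermap. The genes were chosen by name from a list, and each was measured by 1 named probe of the array, so that all 8 of 8 listed genes were found among 17710 measured genes. Epb42 was found under its older symbol, EPB4.2. The hearts came from mice of a C57bl/6 X 129 hybrid background. One group carried the genotype label Salvador mutant (Salv CKO) and the other was labelled wild-type (Control), with no treatment named for either. Each group had 2 biological samples, and each sample was hybridised to 3 technical arrays, 12 arrays in all. The sources used here do not give the Cre driver, the deleted part of the Salvador gene or whether a sample was 1 heart or a pool. The source label speaks of embryonic heart where the stage label gives postnatal day 8. The comparison asks which genes depend on the Hippo pathway, of which Salvador (Sav1) is the kinase scaffold.

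Red cells form from precursors that make large amounts of haem and globin, take up iron through the transferrin receptor and build a membrane skeleton anchored to the anion exchanger band 3. The transcription factors Gata1 and Klf1 switch these genes on, and young red cells keep their messenger RNA for a time after losing the nucleus. Around birth the making of red cells moves from the liver to spleen and bone marrow, and a whole heart also holds blood. In a bulk sample, fewer cells of a type and less RNA per cell cannot be told apart.

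The upstream sequences of the genes were compared for the letters that Gata1 reads. RefSeq (GRCm38.p6) windows were on hand for 6 of the 8 genes, all but Slc4a1 and Car2, and the 250 bases before the start of each gene were searched. Of the GATA hexamers searched on both strands, one read AGATAA, the next one read AGATAG, the third read TGATAA, while the last read TGATAG. A hexamer was present before 4 of the 6 genes, against 26.5% of 32851 promoter windows of that length. These 4 windows are shown because they hold a hexamer, which stands in capitals as it reads on the gene's strand. They cover chrX:150547167-150547416 (plus strand), chr2:121036878-121037127 (minus strand), chr8:84901732-84901981 (plus strand) and chr4:119189996-119190245 (minus strand).
Alas2: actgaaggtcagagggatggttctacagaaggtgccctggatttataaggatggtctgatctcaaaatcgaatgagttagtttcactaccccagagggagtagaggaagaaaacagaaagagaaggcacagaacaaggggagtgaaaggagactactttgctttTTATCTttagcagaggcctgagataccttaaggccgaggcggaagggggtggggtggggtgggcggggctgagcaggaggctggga
Epb42: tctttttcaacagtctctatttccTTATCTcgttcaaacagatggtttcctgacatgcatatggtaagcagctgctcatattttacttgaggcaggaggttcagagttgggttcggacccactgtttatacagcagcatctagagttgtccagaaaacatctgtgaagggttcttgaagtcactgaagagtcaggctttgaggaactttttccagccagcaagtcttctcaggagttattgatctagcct
Klf1: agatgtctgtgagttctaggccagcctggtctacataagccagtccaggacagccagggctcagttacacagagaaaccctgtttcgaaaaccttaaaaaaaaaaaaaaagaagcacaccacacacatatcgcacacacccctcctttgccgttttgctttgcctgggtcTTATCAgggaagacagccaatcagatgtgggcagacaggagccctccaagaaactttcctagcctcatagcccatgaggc
Ermap: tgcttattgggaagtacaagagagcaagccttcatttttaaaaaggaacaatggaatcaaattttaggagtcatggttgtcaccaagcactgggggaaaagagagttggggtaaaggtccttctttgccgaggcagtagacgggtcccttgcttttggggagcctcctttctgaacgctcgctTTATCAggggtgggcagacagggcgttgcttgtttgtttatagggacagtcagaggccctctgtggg
The capitals begin 86 bases before the start in Alas2, 226 in Epb42, 80 in Klf1 and 67 in Ermap. Alas2 and Epb42 hold TTATCT, which is AGATAA on the other strand, and Klf1 and Ermap hold TTATCA, which is TGATAA there. No hexamer lay in the window of Gata1 or in either window of Tfrc. The element CCNCNCCC, a form of the CACCC box that Klf1 reads, was also searched on both strands and was found in 45.9% of all windows. It occurred 4 times before Alas2, 3 times before Gata1 and 3 and 2 times in the windows of Tfrc, overlapping no hexamer, and was not among the letters of the Epb42, Klf1 and Ermap windows. Both motifs together were found before Alas2 and in 8.19% of all windows. A match describes the letters only.

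Values are deposited array intensities, and levels are log2(intensity + 1) after quantile normalization, averaged over the 3 arrays of a sample. Array brightness before normalization differed, with 75th percentiles of 457 to 542 in Salv CKO 2, 408 to 474 in Control 1, 360 to 411 in Control 2 and 348 to 401 in Salv CKO 1. The number of samples limits the precision. The measured heart muscle markers Actc1, Tnnt2, Tnni3 and Pln had levels between 14.88 and 15.62 in every sample, as fits the tissue label. The targeted gene, Sav1, did not separate the groups: its level was 8.06 in Salv CKO 1 and 8.08 in Control 2, and 8.52 in Salv CKO 2 and 8.75 in Control 1. Directions between groups are therefore those of the labels only.

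The precursor label was borne out unevenly by the measured genes. Alas2 and Tfrc lay at the 98.6th and 96.8th percentiles of probe level, Slc4a1 at the 73.1st and Car2 at the 56.6th. Klf1, Epb42, Gata1 and Ermap lay between the 32.1st and 38.7th percentiles, with deposited intensities of 4 to 50. Rhag, a membrane protein of precursors, had intensities of 1 to 13, and the erythropoietin receptor gene Epor of 9 to 40. The main globin genes and Ahsp, the chaperone of alpha globin, were without a named probe here. Tfrc and Car2 are also made by many other cell types.

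The clearest pattern of the 8 genes lay between samples and not between the groups. Alas2, Slc4a1, Epb42 and Car2 all had their lowest level in Control 2 and their highest in Salv CKO 2. All 3 arrays of Control 2 lay below the other 9 arrays for each of these 4 genes, against 4.33% of 26423 probes. The order Control 2, Salv CKO 1, Control 1, Salv CKO 2 from low to high held for Alas2, Slc4a1 and Epb42, against 3.19% of probes. Since an earlier look at these data had already shown Alas2 to be low in Control 2, these counts are descriptions.

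**Figure D1:**
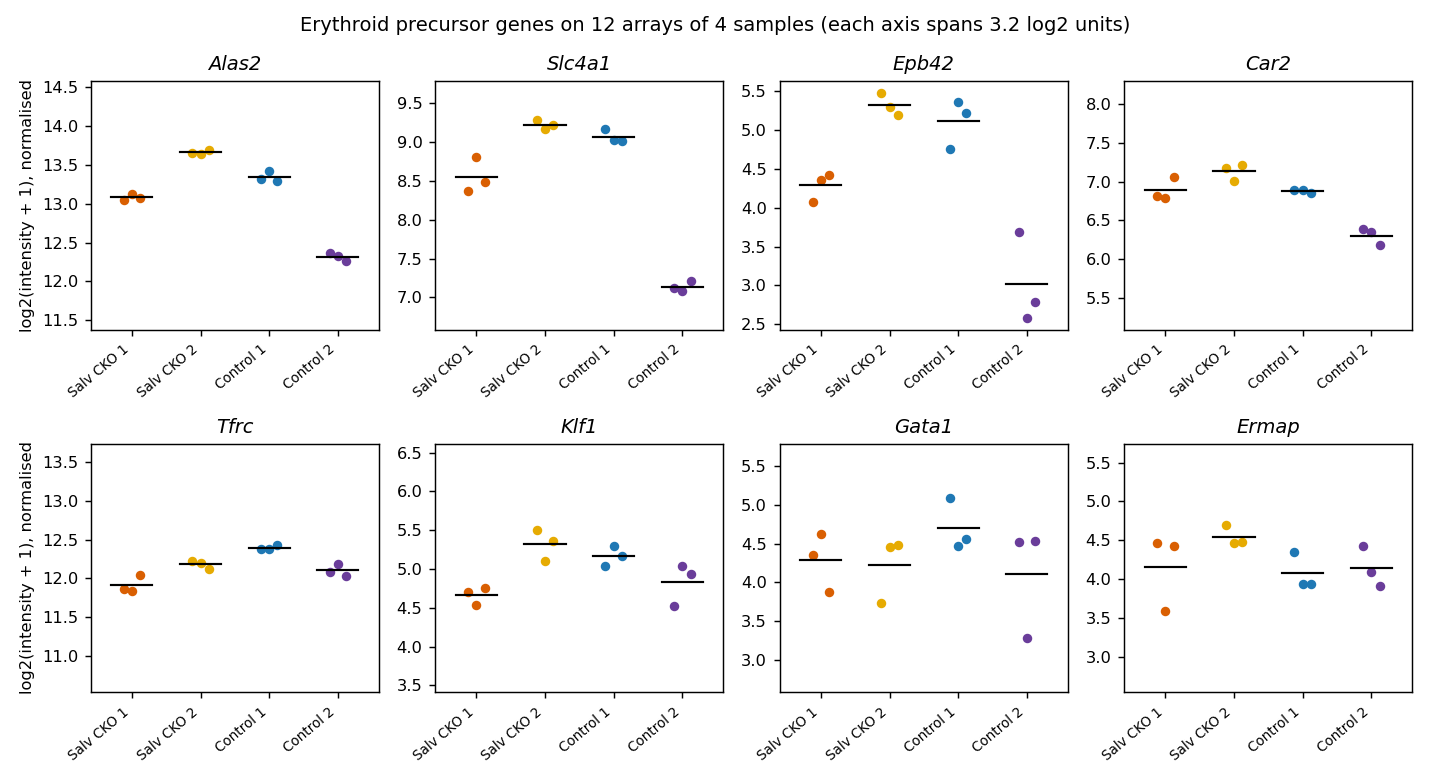
Level of each of the 8 genes (vertical axis, normalised log2(intensity + 1), each panel spanning the same 3.2 units) on the 3 technical arrays of the 4 samples; points are arrays and bars their mean. Control 2 lies below the other samples for Alas2, Slc4a1, Epb42 and Car2. The arrays of all samples overlap for Gata1, and those of neighbouring samples overlap for Ermap.

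Alas2 encodes the erythroid form of the enzyme that starts haem synthesis. Its deposited intensities were 4947, 4547 and 4666 on the arrays of Control 2 and 11701, 11491 and 10763 on those of Control 1. They were 7090, 7823 and 6846 in Salv CKO 1 and 15083, 13664 and 16124 in Salv CKO 2. The 4 samples were thus distinct on every array, with the 2 controls at opposite sides of Salv CKO 1. Levels were 12.32 in Control 2, 13.08 in Salv CKO 1, 13.34 in Control 1 and 13.66 in Salv CKO 2, a 2.54-fold span of normalised intensity. The SD between technical arrays was 0.030 to 0.073, far smaller than the range of 1.35 between samples. The mean was 13.37 ± 0.41 (SD, n = 2) in Salv CKO and 12.83 ± 0.73 (SD, n = 2) in Control. The difference of 0.54 ± 0.44 (SE, limma adjusted p = 0.998, 95% interval -0.62 to 1.70) did not pass the threshold, and the groups overlapped. It was 0.030 without Control 2 and 1.06 without Control 1 (limma adjusted p = 0.979 and 0.85).

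Slc4a1 encodes band 3, the anion exchanger of the red cell membrane, and showed the same order with a wider span. Its intensities were 132, 114 and 148 in Control 2, against 657, 510 and 524 in Control 1. They were 291, 419 and 299 in Salv CKO 1 and 749, 620 and 757 in Salv CKO 2. Control 2 stood apart from all others, and the arrays of Control 1 and Salv CKO 2 overlapped after normalization. The levels, 7.14, 8.56, 9.07 and 9.23 in that order of samples, spanned 4.27-fold. Control 2 lay 1.93 log2 units below Control 1 (-1.93 as Control 2 minus Control 1), a drop that 127 of 26423 probes matched or passed, or 0.481%. Among 10969 probes with a mean level of at least 7, only 7 were as low, Slc4a1 included. The difference between the labelled groups was 0.79 ± 0.70 (SE, limma adjusted p = 0.998, 95% interval -1.07 to 2.64). It became -0.18 without Control 2 and 1.75 without Control 1.

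Epb42 encodes protein 4.2, which ties band 3 to the skeleton under the red cell membrane. It was dim, with intensities of 11, 4 and 6 in Control 2 and 30, 32 and 30 in Control 1. In Salv CKO 1 they were 17, 26 and 19, and in Salv CKO 2 they were 48, 38 and 46. The order of samples was that of Alas2 and of Slc4a1, and the arrays of Control 1 and Salv CKO 2 again overlapped. Its levels were 3.02 in Control 2, 4.29 in Salv CKO 1, 5.12 in Control 1 and 5.32 in Salv CKO 2. The technical SD reached 0.59 in Control 2, below the 2.30 between the lowest and highest samples. The difference by label was 0.74 ± 0.80 (SE, limma adjusted p = 0.998). It was 0.35 with a pseudocount of 16, -0.31 without Control 2 and 1.78 without Control 1.

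Car2 encodes carbonic anhydrase II, the fast enzyme that interconverts carbon dioxide and bicarbonate in red cells and elsewhere. Intensities ran from 67 to 80 in Control 2, 102 to 125 in Control 1, 109 to 118 in Salv CKO 1 and 132 to 186 in Salv CKO 2. Control 2 was again lowest on every array, and Control 1 and Salv CKO 1 did not differ beyond their arrays, at levels of 6.88 and 6.89. The groups did not overlap, which was so for 30.6% of all probes and, among the 8 genes, for Car2 and Ermap. The difference of 0.42 ± 0.29 (SE, limma adjusted p = 0.998, 95% interval -0.34 to 1.18) was 0.13 without Control 2 and 0.71 without Control 1.

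Tfrc encodes the transferrin receptor that brings iron into dividing cells, and its samples lay close together. Levels were 11.92 in Salv CKO 1, 12.10 in Control 2, 12.18 in Salv CKO 2 and 12.40 in Control 1, a 1.39-fold span. Its lowest sample was Salv CKO 1 and not Control 2, and arrays of neighbouring samples overlapped apart from those of Control 1. The difference by label was -0.20 ± 0.24 (SE, limma adjusted p = 0.998), and it was -0.055 without Control 1.

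The transcription factor genes were dim, and whether Klf1 shared the order of Alas2 depended on the scaling. Klf1, the erythroid Krüppel-like factor, had intensities of 19 to 31 in Control 2, 24 to 30 in Salv CKO 1, 28 to 36 in Control 1 and 33 to 50 in Salv CKO 2. Its highest sample was Salv CKO 2, as for Alas2, but arrays of every pair of neighbouring samples overlapped. Klf1 levels were 4.66 in Salv CKO 1, 4.83 in Control 2, 5.16 in Control 1 and 5.32 in Salv CKO 2. With arrays centred on their medians, or not normalized, Control 2 was lowest (4.68 and 4.59) and Klf1 had the whole order of Alas2. The difference was -0.003 ± 0.32 (SE, limma adjusted p = 1), with a 95% interval of -0.84 to 0.84. Gata1, the founding GATA factor of the red cell lineage, had levels of 4.11 in Control 2, 4.23 in Salv CKO 2, 4.29 in Salv CKO 1 and 4.70 in Control 1. Technical SDs of Gata1 ran from 0.34 to 0.72 against a range of 0.59 between samples, so its samples did not differ beyond their arrays. Its difference was -0.15 ± 0.28 (SE, limma adjusted p = 0.998), and 0.15 without Control 1.

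Ermap encodes an erythroid membrane protein of the immunoglobulin family that carries the Scianna blood group. Its intensities of 12 to 32 gave levels from 4.08 in Control 1 to 4.55 in Salv CKO 2, and all neighbouring samples overlapped. Although the sample means of the groups did not overlap, the difference of 0.25 ± 0.24 (SE, limma adjusted p = 0.998) was 0.14 with a pseudocount of 16 and 0.054 without Salv CKO 2.

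Over the 8 genes, 0 passed an adjusted p of 0.05 in limma, as did 0% of all 26423 probes, and 0 had an unadjusted p under 0.05, against 3.97% of probes. Positive differences numbered 5 of 8, against 48.6% of probes, and the median difference was 0.33 against -0.010 over all probes. That median was -0.18 without Control 2, when 3 of 8 differences were positive, and 0.46 without Control 1. Over all alternatives the smallest adjusted p of any of the 8 genes in limma was 0.562.

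**Figure D2:**
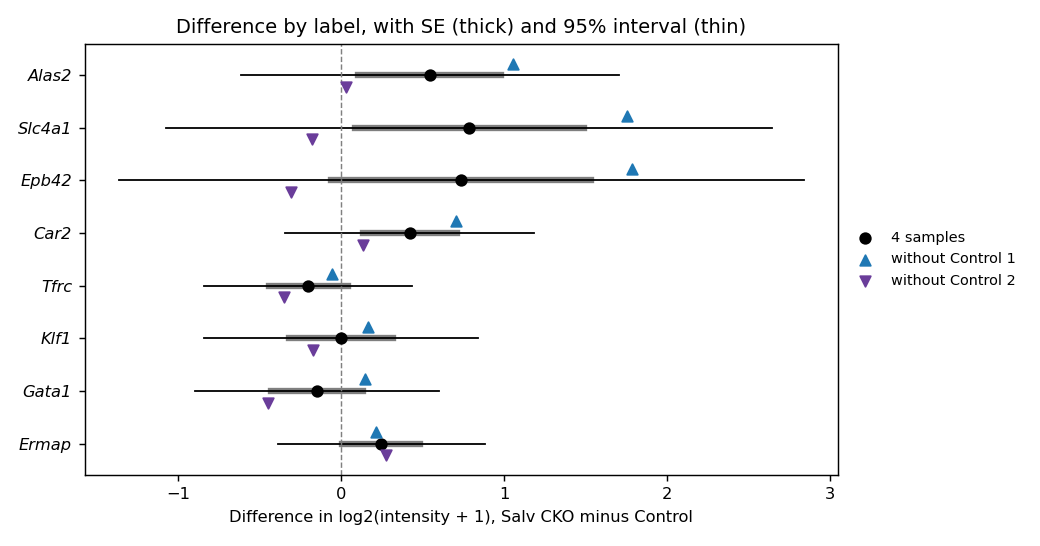
Difference in level between the groups as labelled (horizontal axis, log2, Salv CKO minus Control) for each gene; circles use all 4 samples, with the SE as a thick and the 95% interval as a thin line, and triangles leave out 1 control. Every interval spans 0, and for Slc4a1 and Epb42 the value moves from 1.75 and 1.78 without Control 1 to -0.18 and -0.31 without Control 2.

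The spread within each group was examined next. Control 2 lay at least 1 log2 unit below Control 1 for 3 of the 8 genes, against 5.09% of probes. These were Epb42 (-2.09), Slc4a1 (-1.93) and Alas2 (-1.03). For Gata1 the value was -0.59, for Car2 -0.57, for Klf1 -0.34, for Tfrc -0.29 and for Ermap 0.064. The drop was not particular to these genes. In the lists read below it was seen for 3 of 12 red cell membrane genes and 2 of 10 maturation genes. It was also seen for 2 of 8 neutrophil genes and 2 of 18 paralogs, with Car8 at -2.73. It was seen for 0 of 9 haem synthesis genes, 0 of 8 erythroid transcription factors and 0 of 7 macrophage genes. Within the samples labelled Salv CKO, the second minus the first was 1.03 for Epb42, 0.67 for Slc4a1, 0.66 for Klf1 and 0.58 for Alas2. It was 0.38 for Ermap, 0.27 for Tfrc, 0.245 for Car2 and -0.061 for Gata1. Control 2 was the lowest sample for 5 of 8 genes, against 24.9% of probes, and Salv CKO 2 the highest for 6 of 8, against 18.7%. Both held for 4 of 8, against 6.11% of probes. With arrays centred on their medians, or not normalized, Alas2, Slc4a1, Epb42 and Car2 still had Control 2 lowest and Salv CKO 2 highest. Values that were not normalized also carry array brightness, so that setting cannot set the pattern apart from it. Brightness was highest in Salv CKO 2 and next in Control 1, the samples in which Alas2 was also highest. A part of brightness in the pattern was not tested.

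**Figure D3:**
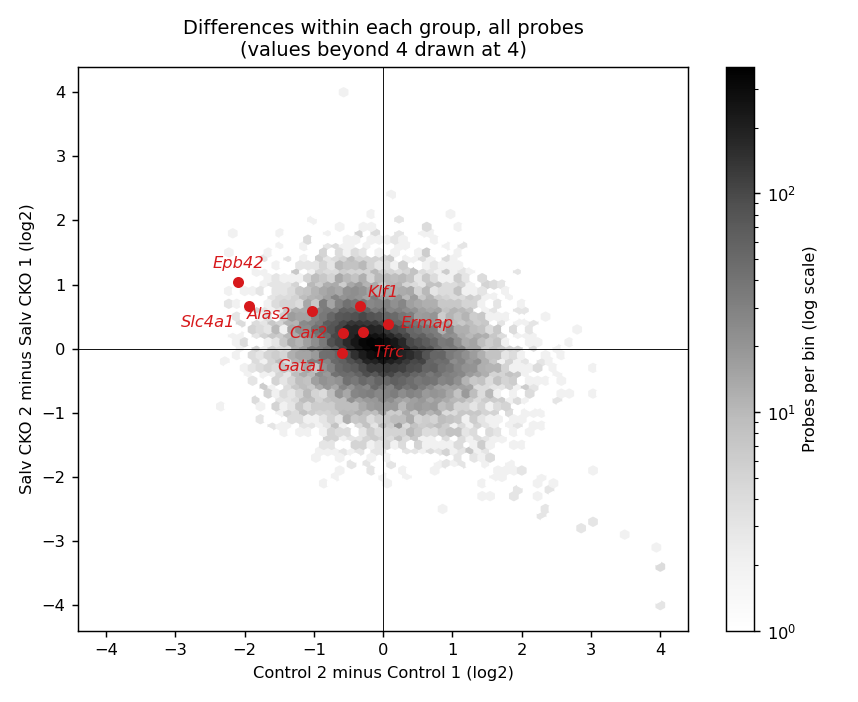
Difference between the 2 controls (horizontal axis, log2) against that between the 2 Salv CKO samples (vertical axis, log2) for all 26423 probes, with darker bins holding more probes on a log scale and the 8 genes in red. Epb42 and Slc4a1 lie farthest left of the 8 genes, at -2.09 and -1.93, where 83 and 127 of the probes are as low. Alas2 lies at -1.03, and Tfrc, Klf1 and Ermap lie nearer the centre.

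Other genes of the red cell program were read from fixed lists, and 0 of their members passed in limma in either direction. In the globin list 2 of 12 genes had a named probe, the theta globin genes Hbq1a and Hbq1b, near-identical copies whose probes may share signal. Hbq1a levels were 3.62 in Control 2, 4.48 in Salv CKO 1, 5.67 in Control 1 and 5.81 in Salv CKO 2. Hbq1b levels in the same order were 4.61, 5.14, 5.57 and 5.74. Both theta globin genes thus had the sample order of Alas2, Slc4a1 and Epb42, but both were dim, with intensities of 9 to 64 for Hbq1a and 10 to 68 for Hbq1b. The arrays of Control 1 and Salv CKO 2 overlapped for both genes, and those of Control 2 and Salv CKO 1 overlapped for Hbq1b. The differences of Hbq1a and Hbq1b by label were 0.50 ± 0.83 and 0.35 ± 0.43 (SE).

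In the list of red cell membrane and skeleton genes, 5 of 12 measured differences were positive, with a median of -0.018. Control 2 was the lowest sample for 8 of 12, against 24.9% of probes, and all its arrays lay below the other 9 for 4 of 12. One of them, Tspo2, an erythroid cholesterol-binding protein of the translocator family, had levels of 5.52 in Control 2, 6.48 in Salv CKO 1, 7.03 in Control 1 and 7.13 in Salv CKO 2. Tspo2 repeated the order of Alas2, as 1 of 12 genes of this list, though its arrays of Control 1 and Salv CKO 2 overlapped. Salv CKO 2 was highest for 2 of 12, against 18.7% of probes. The difference of Tspo2 by label was 0.53 ± 0.58 (SE). Rhd, of the Rh blood group family, stood at 8.43 in Control 2 and at 8.80 to 8.93 in the other samples. Cd24a, a surface marker also found on other cells, stood at 10.34 in Control 2 and 10.60 to 10.76 elsewhere. Dmtn, the actin-bundling protein dematin, had its highest level, 7.34, in Control 2. Its technical SD of 0.55 in Salv CKO 1 exceeded the range of 0.43 between samples, so no order is read from it.

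The list of red cell maturation genes had 7 of 10 positive differences with a median of 0.14. Trim10, a tripartite motif gene of terminal red cell development, had levels of 2.87 in Control 2, 3.41 in Salv CKO 1, 4.35 in Control 1 and 5.52 in Salv CKO 2. Trim10, as 1 of 10 genes of this list, had the sample order of Alas2. It was near background in Control 2 (intensities of 6, 9 and 3) and Salv CKO 1 (12, 16 and 6), whose arrays overlapped. Control 2 was lowest for 5 of 10 maturation genes and Salv CKO 2 highest for 1 of 10, and all arrays of Control 2 lay below the others for 1 of 10. Trim58, a ubiquitin ligase of enucleating precursors, was lowest in Control 1 (5.29) and highest in Salv CKO 1 (6.53). Its arrays scattered widely, with intensities of 14 to 143 and technical SDs of 0.97 and 0.93 in these samples. Bpgm, which makes the phosphoglycerate that lowers oxygen binding of haemoglobin, differed by 0.52 ± 0.26 (SE) at intensities of 8 to 46.

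**Figure D4:**
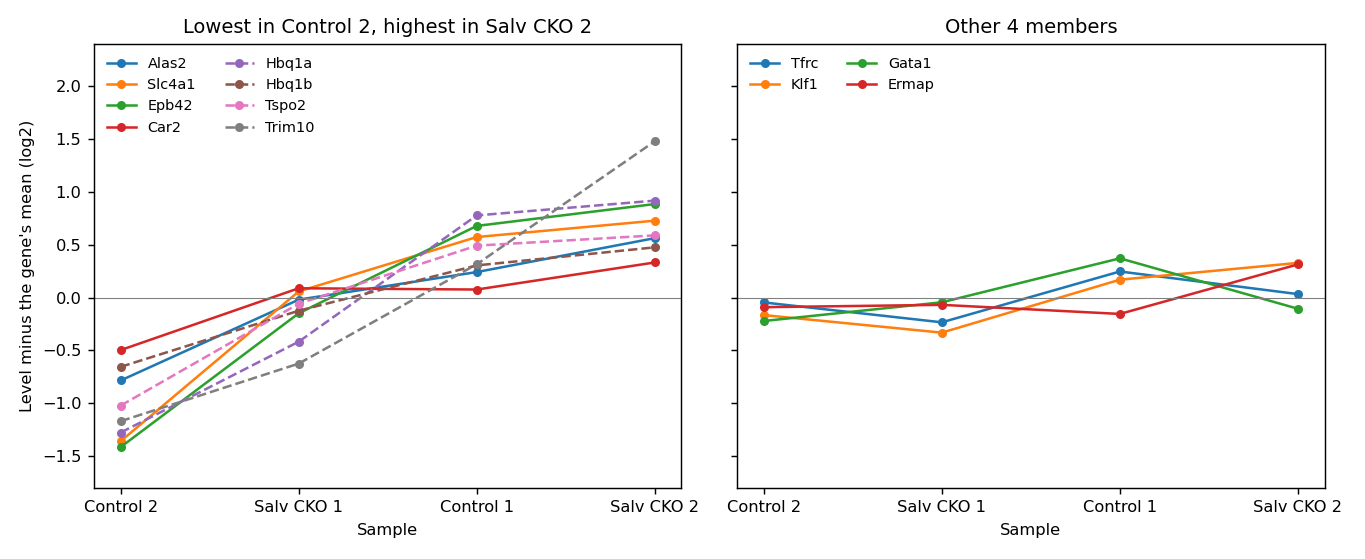
Level minus the gene's own mean (vertical axis, log2) in the 4 samples, ordered as Alas2 is; solid lines are members of the 8-gene list and broken lines other red cell genes. At left, Control 2 is lowest and Salv CKO 2 highest for Alas2, Slc4a1, Epb42, Car2, Hbq1a, Hbq1b, Tspo2 and Trim10, genes gathered after their values were seen; at right, Tfrc, Klf1, Gata1 and Ermap span at most 0.66.

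The remaining steps of haem synthesis did not share the order of Alas2. Control 2 was lowest for 1 of 9 measured genes and all its arrays lay below the others for 0 of 9. Positive differences numbered 3 of 9, with a median of -0.035. Cpox, an oxidase late in the pathway, had levels of 7.58 in Salv CKO 1 and 7.72 in Salv CKO 2, then 8.26 in Control 1 and 8.16 in Control 2, a difference of -0.56 ± 0.21 (SE, limma adjusted p = 0.998). Fech, which inserts iron into the ring, had levels of 11.14, 11.35, 11.56 and 11.69 in these samples. Alad, the second enzyme, was lowest in Control 1 (7.89), and Ppox differed by -0.21. All of these enzymes work in every cell that makes haem, whereas Alas2 is confined to the red cell lineage. Alas1, the form of the first enzyme used by other tissues, had levels from 12.75 in Salv CKO 2 to 13.18 in Salv CKO 1. Its lowest sample was the one in which Alas2 was highest.

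Genes of iron uptake and storage had 9 of 11 positive differences and a median of 0.13. For 6 of them the groups stood apart without overlap, against 30.6% of probes. Ftl1, a ferritin chain, was dim here (intensities of 1 to 19) and differed by 0.68 ± 0.39 (SE). Aco1, the iron-sensing aconitase that binds Tfrc messenger RNA, differed by 0.22, Steap3, which reduces iron in the Tfrc pathway, by 0.26, and the iron carrier Trf by -0.21. The sample order of Alas2 held for 0 of 11 genes of this list. Control 2 was lowest for 2 of 11, and all its arrays lay below the other 9 for 1 of 11. This was the iron transporter gene Slc11a2, at 8.15 in Control 2 and 9.30 in Control 1. In erythropoietin signalling, 3 of 7 differences were positive with a median of -0.12. Jak2, the kinase at the receptor, differed by 0.37, Stat5a and Stat5b by -0.31 and -0.32, and Epo by -0.33 at intensities of 10 to 34. The partners of Gata1 and Klf1 in transcription had 3 of 8 positive and a median of -0.046, and Control 2 was lowest for 0 of 8. Among them, the Gata1 cofactor Zfpm1 differed by 0.32, Nfe2 by -0.42, Tal1 by -0.32 and Gfi1b by 0.28.

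Paralogs of the 8 genes had 7 of 18 positive differences and a median of -0.050, and 1 of 18 had an unadjusted p under 0.05, against 3.97% of probes. This was Slc4a3, an anion exchanger of heart and brain related to Slc4a1. Slc4a3 was dim here, with intensities of 7 to 70 and technical SDs of 0.60 in Control 1 and 0.72 in Control 2. Its levels were 6.00 in Salv CKO 1 and 5.82 in Salv CKO 2, then 3.39 in Control 1 and 4.59 in Control 2, a difference of 1.92 ± 0.45 (SE, limma adjusted p = 0.998). The groups did not overlap for Slc4a3, and unlike Slc4a1 it was lowest in Control 1. Slc4a2, the broadly used exchanger, differed by -0.31. Among carbonic anhydrases, Car1, another red cell enzyme, differed by 0.55 at intensities of 5 to 34. Gata5 differed by -0.72 and Klf4 by -0.45. The cardiac factors Gata4 and Gata6 differed by 0.13 and -0.011.

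Markers of other blood cells were read beside the 8 genes. The summed normalised intensity of the 8 genes was 9795 in Control 2, 13110 in Salv CKO 1, 16550 in Control 1 and 18490 in Salv CKO 2, and that of the theta globin genes 36.7, 57.7, 96.9 and 108 in the same order. For 6 platelet and megakaryocyte genes the sums were 2759, 2590, 2331 and 2951, with all 3 arrays of Control 2 below the others for 0 of 6. For 8 neutrophil genes they were 782, 889, 1495 and 988, for 7 macrophage genes 6842, 6430, 6474 and 6703, and for 5 lymphocyte genes 522, 555, 505 and 437. For 4 heart muscle genes they were 158000, 149600, 147100 and 147800. The sum of the 8 genes rested mostly on Alas2 and Tfrc, the brightest of them. Singly, 3 of the 8 genes had the order of that sum, namely Alas2, Slc4a1 and Epb42, and Tfrc, Car2, Klf1, Gata1 and Ermap did not. The neutrophil sum was thus lowest in Control 2. Of the 8 neutrophil genes 1 had its lowest level there, and 0 of 7 macrophage genes did. That gene was S100a9, the brightest of the 8, with levels of 9.68 in Control 1 and 8.14 in Control 2. The neutrophil genes Ngp, S100a8 and Mpo were higher in Control 2 than in Control 1. The macrophage sum of Salv CKO 2 includes an array on which Mrc1 read 8, against 1916 and 1699 on the other arrays of that sample, so the order of that sum is not read. Their part in the red cell pattern was not tested. The markers Itga2b, Elane and Ms4a1 had intensities of 1 to 18. Of single markers, the neutrophil peptide gene Camp had 7.91 in Control 1 and 6.79 in Control 2, the macrophage scavenger receptor gene Cd163 8.27 and 7.31, and the platelet receptor gene Gp1ba 7.30 and 6.96. Others went the other way, with the macrophage genes Cd68 at 7.31 and 8.44 and C1qb at 10.00 and 10.30, and the platelet factor gene Pf4, chosen after its values were seen, at 11.04 and 11.31. Alas2 and Gata1 lie on the X chromosome. Xist, the RNA of the inactive X, had levels of 6.24 in Control 2 and 6.58 to 6.79 in the other samples, at intensities of 59 to 141. The Y gene Kdm5d, at intensities of 4 to 39, was lowest in Control 1 (2.845) and highest in Control 2 (4.737). A part of the sex of the mice in the red cell pattern was not tested either.

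The genes most like Alas2 were sought among 9004 other genes with a mean level of at least 7, by the root mean square distance between levels centred on each gene's mean over the 4 samples. The nearest were Fras1 (0.112), a matrix protein of basement membranes, Lnx1 (0.114), a ubiquitin ligase, Isg20 (0.136), an exonuclease, Prps2 (0.137), an enzyme of nucleotide synthesis, and Atp10d (0.143), a lipid flippase. Among the 8 genes the distance to Alas2 was 0.209 for Car2, 0.344 for Slc4a1, 0.367 for Klf1, 0.419 for Ermap, 0.421 for Epb42, 0.442 for Gata1 and 0.467 for Tfrc. The measure includes the size of the swing, which was wider in Slc4a1 and Epb42 than in Alas2. To the mean profile of Alas2, Slc4a1 and Tfrc, the 3 brighter members, the nearest were Haus1 (0.093), Pigt (0.104), Resf1 (0.110), E2f2 (0.111) and Sh3bp4 (0.137). E2f2, an E2F factor of the cell cycle, had levels of 6.85 in Control 2, 7.23 in Salv CKO 1 and 7.76 in both of the others. With 4 samples and 9004 genes, such likeness describes these samples only.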

How the data were processed

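Whole-heart RNA of 4 samples was measured on 12 one-colour arrays, amplified with an amino-allyl nucleotide and labelled with Cy5, per the labels' protocols. The deposited values are intensities, whole numbers from -10 to 65474 for 26423 probes. Some lie below 0, so the authors had removed a background from these intensities. The sources used here do not say how they scanned, corrected or normalized.

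Array medians (58 to 88) differed, so arrays were quantile normalized (limma 3.58.1, R 4.3.3). Values below 0 were set to 0.0833, log2(value + 1) was taken, and the 3 arrays of a sample were averaged. Groups were compared with lmFit and eBayes, 2 samples against 2 (2 residual and 2.60 prior degrees of freedom), with Benjamini-Hochberg adjustment over all probes. The procedure was tested on simulated data. Nothing in the labels says that samples came from separate litters or hearts, so limma p-values reflect only how far these 4 samples differ, which may be technical.

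Probes were named from the platform annotation, updated through RefSeq GRCm38.p6: 18213 by symbol, 2126 by a unique synonym, 38 unmatched and 6046 unnamed. Of several probes of a gene, the brightest was used. The 8 genes and the lists were chosen with earlier results of these data known. Named were the 8 genes, up to 4 genes per list with the smallest p, paralogs, Sav1 and the 5 genes nearest in pattern. Rhag, Epor, Alas1, Gata4, Gata6 and others outside that rule were added. Alternatives covered normalization, pseudocounts of 16 and 50, filters on dim probes, technical arrays, blocking, moderation and each sample left out. Figures were drawn with matplotlib 3.10.9.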

Additional observations from a re-analysis of the deposited data

How the results depend on the processing

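The count of 0 of the 8 genes passing in limma held in every alternative run, blocks and left-out samples included. The count of probes passing, 0 (1048 at an unadjusted p under 0.05), was 2 with arrays centred on their medians, 14 without normalization and 61 with 12 arrays and the sample as a random block, and 0 in all others. The median difference of the 8 genes, 0.33, ran from -0.18 (without Control 2) to 0.49 (without Salv CKO 1) with 1 sample left out. It was 0.52 without normalization between arrays and 0.12 with a pseudocount of 50, and only leaving out Control 2 moved it beyond the spread between replicates. Without the dimmest 50% of probes 4 of the 8 genes were left. Each gene had 1 probe, so a mean over probes changes nothing and was not run.

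With the sample numbers as a replicate block, 0 probes and 0 of the 8 genes passed. Deviations of the samples numbered 1 correlated at -0.253 over probes, which is no sign of pairing. The crossed pairing, chosen after seeing the data, also gave 0 probes and 0 of the 8 genes. Signal over background limits Epb42, Klf1, Gata1 and Ermap, whose intensities did not exceed 50. It likewise limits Hbq1a, Hbq1b and Trim10, whose highest intensities were 64, 68 and 55.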
